A study of Mus musculus with 8 samples.

Results

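The 373 CpG positions listed on the mitochondrial chromosome of the deposited whole-genome bisulfite table had a median methylation level of 0.94% in young and 0.87% in old muscle stem cells, below every nuclear position of the table. They are all rows of the table on chrM, out of 33108039 rows in all, and were chosen by chromosome alone. The cells were quiescent skeletal muscle stem cells of male C57BL/6 mice, isolated from the limbs by sorting for VCAM+ cells that were CD45-, CD31- and Sca1-. Libraries came from 4 young mice at 4 months and 4 old mice at 22 months, 1 animal each, with no other treatment or allele in the labels. The table gives 1 level and 1 dispersion per position for each age, with the 4 animals combined. Values per animal and read counts were not analysed here, so levels stand without an SD, the depth per position is unknown, and no difference between the ages could be set against the spread between animals.

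Mitochondrial DNA is a small circular genome, present in many copies per cell, that encodes subunits of the respiratory chain together with the rRNAs and tRNAs used to translate them. Nearly all of its sequence is coding. The control region holds the promoters and the origin of heavy-strand replication. Bisulfite treatment turns unmethylated cytosine into uracil, which is read as thymine, and leaves methylated cytosine as it is. CpG methylation of mitochondrial DNA is generally reported as low or absent, which is why its level is often read as the background of cytosines that escaped conversion. A cytosine that resisted conversion and a methylated cytosine cannot be told apart in this assay. Nuclear DNA also holds old copies of mitochondrial sequence, whose reads can resemble those of the organelle.

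Levels were low at nearly all listed positions and varied from place to place in a similar way at both ages. The level ranged from 0.39% to 6.68% in young cells and from 0.40% to 4.52% in old cells. In young cells 224 of the 373 positions stood under 1%, and in old cells 254 did. At least 3% was reached by 7 positions in young cells and by 1 in old cells. The values are smoothed: the positions fell into 145 runs of successive positions with equal levels in both ages, so neighbouring positions are not separate measurements. Across these 145 runs the young and old levels followed each other closely, with a Pearson correlation of 0.95 and a Spearman correlation of 0.91. This is a description of sites that share libraries, smoothing and local sequence.

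**Figure D1:**
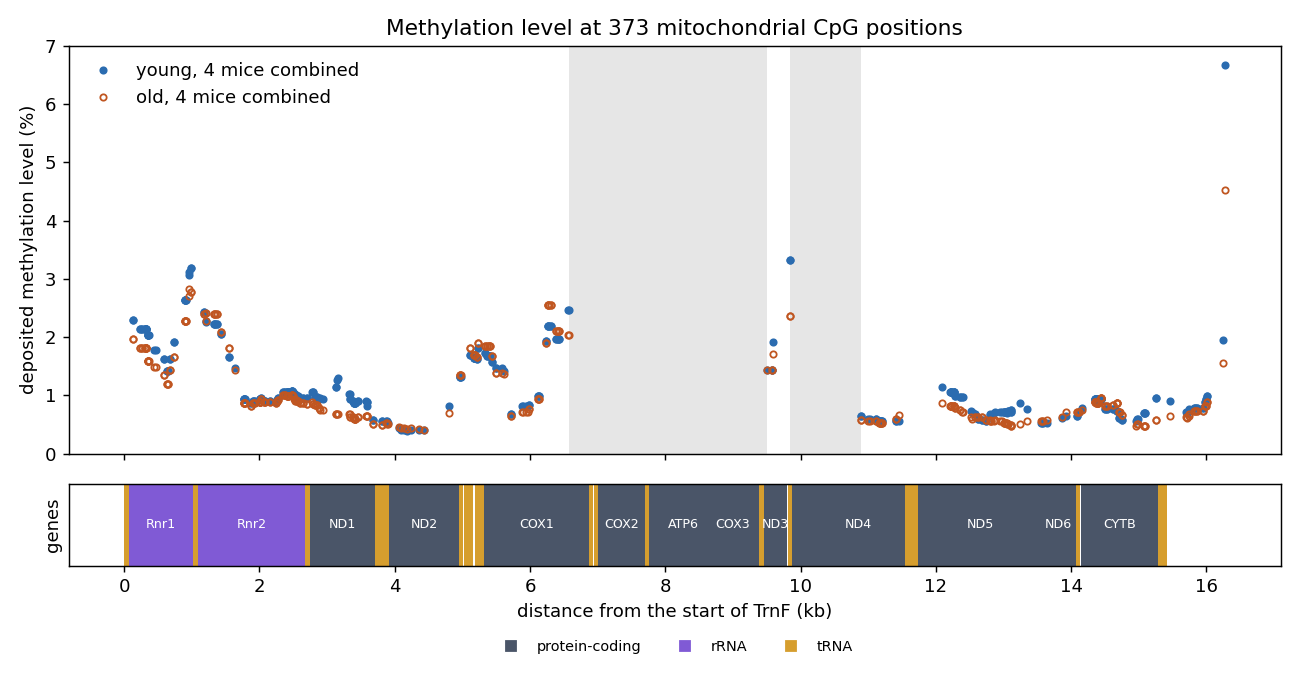
Deposited methylation level in percent at each of the 373 mitochondrial positions (filled, young; open, old; 4 mice combined each) against distance from the start of TrnF in kb, with the genes below and the 2 longest stretches without listed positions in grey. Most points lie under 2%, the last listed position is highest at both ages (6.68% and 4.52%), TrnR (3.32%) comes next in young and mt-Rnr1 (2.83%) in old, and the grey stretches hold no point.

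No mitochondrial position passed the test between the ages in the authors' deposited table. Of the 373 positions, 0 had an FDR under 0.05 there and 0 had an unadjusted p under 0.05, against 0.237% and 2.62% of all rows (0.132% with an FDR call higher in old and 0.105% lower). Which tool made these tests is not given in the sources used. At the share of all rows, 0.883 calls would fall on 373 positions, so the FDR count is near the background. At that share 9.78 positions would have had an unadjusted p under 0.05. The median p in the authors' deposited table was 0.915 on mitochondrial DNA and 0.687 on nuclear DNA, and it was 0.961 over nuclear positions with a mean level under 2%. Nuclear positions of that low level had no calls either: 0 of 352689 had a p under 0.05 there, and their smallest p was 0.539. Choosing positions by a mean level under 2% also limits how far the ages can differ, so this count decides nothing about mitochondrial positions. The smallest mitochondrial p in that table, 0.336, belonged to position 15259 in CYTB, which encodes cytochrome b of complex III, with a level of 0.95% (young) and 0.58% (old).

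The mean was lower in old cells by a small amount, and this direction prevailed at most listed positions. The difference was -0.104 percentage points, which puts the old mean at 0.912 of the young mean. Old levels stood below young levels at 276 positions (74.0%) and above them at 97. Of all rows, nearly all nuclear and mostly of higher level, 45.9% stood lower in old. Among positions with a mean level under 2% the shares were 77.4% on mitochondrial and 61.5% on nuclear DNA. Between 1.5% and 2%, and between 2% and 5%, the mitochondrial share was the smaller. In windows of 1000 bp, 10 were lower and 5 higher in old, from -0.69 to 0.09 points, and 2 windows held no position. Only 5 positions differed by 0.5 points or more. These were the last listed position, at 16282, both cytosines of a CpG in TrnR at 9838 and 9839, and positions 3150 and 3155 in ND1, all lower in old. No test over animals stands behind these differences.

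The rRNA gene mt-Rnr1 had the highest mean among features with at least 3 positions. In mt-Rnr1, which encodes the small ribosomal RNA, the mean over 42 positions was 2.15% (young) and 1.82% (old), and all 42 positions were lower in old, by -0.330 points on average. In young cells its level was 2.29% at position 133, 1.42% at position 634 and 3.18% at positions 983 and 984, near its end. In mt-Rnr2, the large ribosomal RNA gene, 75 positions averaged 1.20% (young) and 1.17% (old). There 12 positions from 1213 to 1553 were higher in old, at 2.23% against 2.11%, and the other 63 were lower.

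Genes of complex I, the NADH dehydrogenase that takes electrons from NADH, had lower means than both rRNA genes, except for ND3, which stood above mt-Rnr2. ND1 averaged 0.941% (young) and 0.682% (old), and all 37 of its positions were lower in old. Its widest gap was at position 3155, 1.29% against 0.68%. ND2 held the lowest level of any gene, 0.460% and 0.461% as means over 8 positions. The lowest single positions were also in ND2, at 0.39% for position 4186 in young and 0.40% for position 4439 in old cells. ND4 stood at 0.571% and 0.556% over 17 positions. ND5 stood at 0.799% and 0.632% over 52 positions, of which 45 were lower in old. ND6 averaged 0.557% (young) and 0.593% (old), with 6 of 6 positions higher in old by at most 0.07 points. ND3 averaged 1.55% (young) and 1.51% (old) over 4 positions, of which 3 were at 1.43% and 1.44% and the other, position 9600, at 1.91% and 1.71%. ND4L held no position.

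Genes of the later steps of respiration were only partly covered. COX1, the catalytic subunit of cytochrome c oxidase (complex IV), averaged 1.58% (young) and 1.64% (old) over 42 positions, with 22 higher and 20 lower in old. The widest gap with old above young was at position 6262 there, 2.19% against 2.55%, and did not pass the authors' test. CYTB stood at 0.795% and 0.767% over 41 positions, 22 lower and 19 higher in old, and its difference of -0.0283 points was -0.01 points without 50 bp at each end. COX2 and COX3, the other subunits of complex IV in this genome, and ATP6 and ATP8, subunits of ATP synthase, held no listed position. Of the 13 protein-coding genes, 8 had at least 1 position, and their mean was lower in old in 5 and higher in 3.

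Transfer RNA genes and sequence outside genes differed in direction between their places on the molecule. Of 22 tRNA genes, 8 held listed positions, 4 with a lower and 4 with a higher mean in old, and they held 24 positions in all. TrnR, with 2 positions, was at 3.32% (young) and 2.37% (old). Among tRNA genes with at least 3 positions, TrnC was highest (1.72% and 1.78% over 4 positions) and TrnM lowest (0.54% and 0.51% over 4). In the 32 bp between TrnN and TrnC, the site of the origin of light-strand replication, 6 positions shared 1 level, 1.64% (young) and 1.70% (old). This spacer was singled out after its values were seen. All 26 positions from 4971 in TrnW to 5439 in COX1 were higher in old, by 0.0931 points on average. The control region, taken here as everything after TrnP, averaged 1.18% (young) and 0.971% (old) over 20 positions, with 20 of 20 lower in old. That mean leans on the last position, 16282, at 6.68% and 4.52%. The other 19 lay between 0.70% and 1.95% in young cells.

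**Figure D2:**
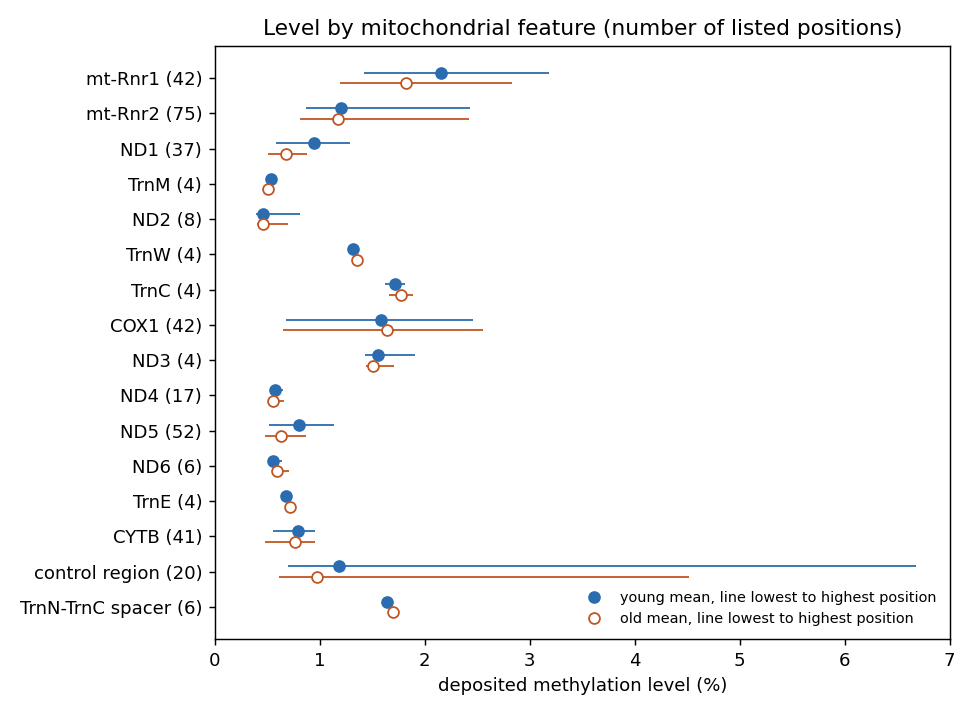
Mean deposited level in percent for each mitochondrial feature with at least 3 listed positions (count in brackets), young filled and old open, with lines from the lowest to the highest position. The mt-Rnr1 mean is highest (2.15% and 1.82%), ND2 is lowest (0.460% and 0.461%), and the ranges of both ages overlap or touch in all features but TrnM, TrnW and the spacer between TrnN and TrnC.

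The strands of a CpG pair had the same deposited level but not the same dispersion. The first of a pair of adjacent positions is the cytosine of the plus strand and the second that of the minus strand. There were 148 such pairs, and 77 further positions stood without their partner, so that 225 CpGs were represented. In 143 of 148 pairs both strands had equal levels in both ages, and in the other 5 they differed by at most 0.06 points in young and 0.15 points in old cells. Either strand averaged 1.25% (young) and 1.15% (old). The partners lie in the same smoothed runs, so their levels are not separate measurements. Unpaired positions stood lower, at 0.940% and 0.812%, and 62 of the 77 lay in blocks of at least 3 in a row. The strand of an unpaired position was not determined.

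The dispersion, phi in the table and not defined in the sources used here, set the strands of mitochondrial pairs apart. In nuclear DNA 1 value was the most common in each age, 0.0438 in young and 0.0434 in old. On mitochondrial DNA 61.5% of plus-strand cytosines had exactly that value in young cells, against 2.03% of minus-strand cytosines. In nuclear pairs the shares were 20.3% and 20.2%, and in nuclear positions under 2% they were 1.28% and 1.25%. In old cells the mitochondrial shares were 36.5% and 0%, and the nuclear ones 18.5% on either strand. Within 0.0003 of that value lay 65.5% and 4.73% of mitochondrial plus- and minus-strand cytosines in young cells, and 60.8% and 1.35% in old cells. These counts were made after the values were seen. They are a description, with no test.

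The asymmetry was sharpest beyond the sparsely listed stretch, from ND4 to the control region. There 49 of 49 plus-strand cytosines lay within 0.0003 of the common value in young cells and 45 of 49 in old cells, against 0 minus-strand cytosines in either age. The minus-strand median there was 0.0161 (young) and 0.0143 (old). Before the sparse stretch, from mt-Rnr1 to COX1, 48 of 98 plus-strand cytosines lay near the common value in young cells, and the minus-strand median was 0.0398. Over all 77 unpaired positions the median was 0.0209 (young) and 0.0152 (old). The authors' p also followed the strand: it was lower on the plus strand in 134 of 148 mitochondrial pairs in the authors' deposited table, and in 49.7% of nuclear pairs.

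**Figure D3:**
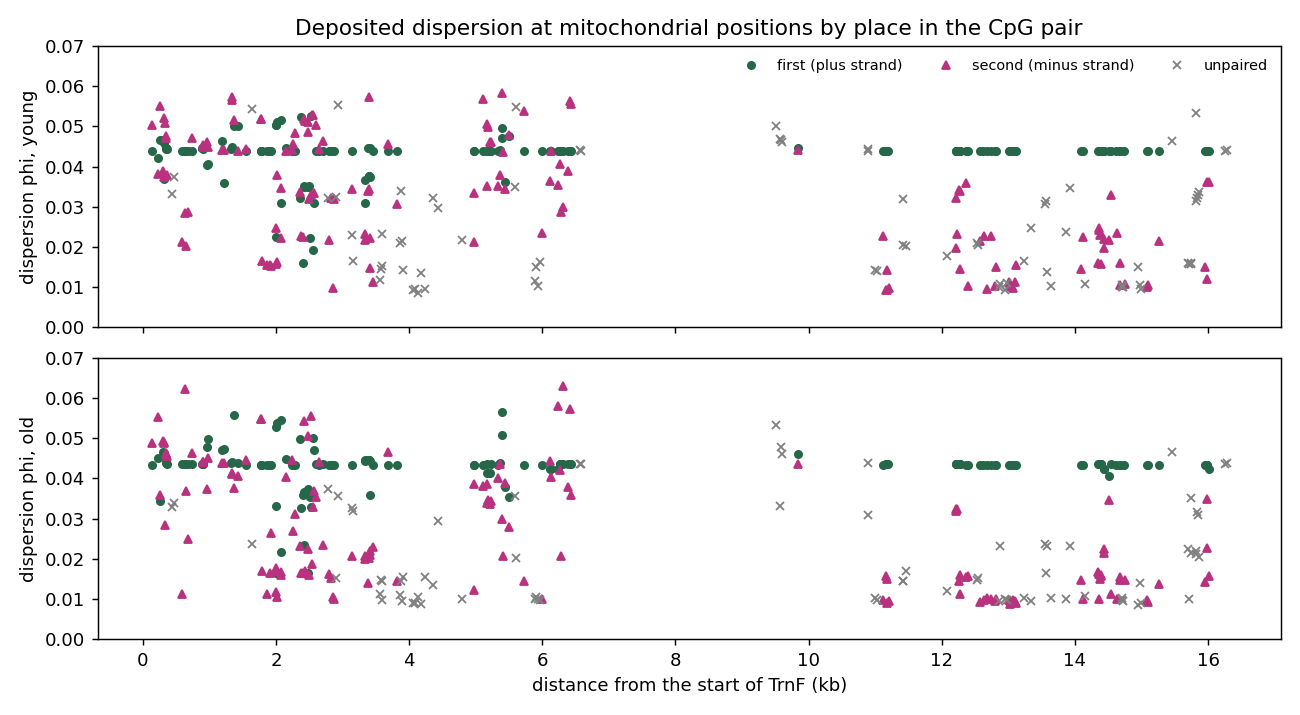
Deposited dispersion phi at mitochondrial positions against distance from the start of TrnF in kb, for young (top) and old (bottom), by place in the CpG pair. Beyond the sparse stretch plus-strand cytosines line up near one height (0.0438 to 0.0439 in 49 of 49 young pairs), while before it they range from 0.0161 to 0.0526 in young.

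Mitochondrial dispersions were lower than those of all nuclear positions in their means but not in the young median. The young medians were both 0.0438, and the old medians were 0.0374 on mitochondrial and 0.0434 on nuclear DNA. The mean was 0.0348 (young) and 0.0320 (old), against 0.0487 and 0.0491 over nuclear positions. Nuclear positions with a mean level under 2% had means of 0.0465 and 0.0459, and their medians, 0.0471 and 0.0468, were above the mitochondrial ones at both ages. No mitochondrial position exceeded 0.0631, whereas nuclear values reached 0.99. Phi was lower in old at 274 mitochondrial positions (73.5%) and higher at 97. It was lower at 59.5% of all nuclear positions and at 51.7% of nuclear positions under 2%. The most common value was itself lower in old, 0.0434 against 0.0438, so a position at it in both ages counts as lower.

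No deposited nuclear level was as low as the mitochondrial median. The levels are smoothed and the depth of either genome is unknown. Whether this sets a floor under the nuclear levels was not tested. The 0.1 percentile of nuclear levels was 1.69% (young) and 1.66% (old). The lowest of 33107666 nuclear levels was 0.97% (young) and 0.93% (old), and 202 mitochondrial positions in young and 234 in old lay below these minimums. Only 22 nuclear positions in young and 10 in old cells stood under the mitochondrial mean of their age, and 0 stood under its median. A mean level under 2% was found at 332 mitochondrial positions (89.0%) and at 1.07% of nuclear ones.

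The lower level in old cells was shared by nuclear DNA of low level, where it was smaller. Over 352689 nuclear positions with a mean level under 2%, young cells stood at 1.87% and old cells at 1.83%, a difference of -0.0373 points, or -1.99% of the young level. The 332 mitochondrial positions under 2% stood at 1.02% and 0.919%, a difference of -0.101 points, or -9.92% of the young level. All 20 nuclear chromosomes with such positions were lower in old, by between -0.0172 (chromosome 14) and -0.0915 points (chromosome X, with 26 positions). Among autosomes the widest gap was -0.0476 points, on chromosome 13. Between 1.5% and 2%, where the levels of both genomes meet, 52 mitochondrial positions differed by -0.119 points and nuclear ones by -0.0373 points. Between 2% and 5% the mean differences were -0.073 points over 40 mitochondrial positions and -0.0711 points in nuclear DNA. Of these mitochondrial positions 45% were lower in old, against 59.8% of nuclear ones, and the TrnR pair, at -0.95 points each, had the widest gaps among them. In the band from 1.5% to 2% the shares were 53.8% and 61.5%. Chromosomes and positions share the same animals, so no test separates these values. Completeness of conversion per library was not analysed here, and a difference in it between the ages and a change with age cannot be told apart.

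**Figure D4:**
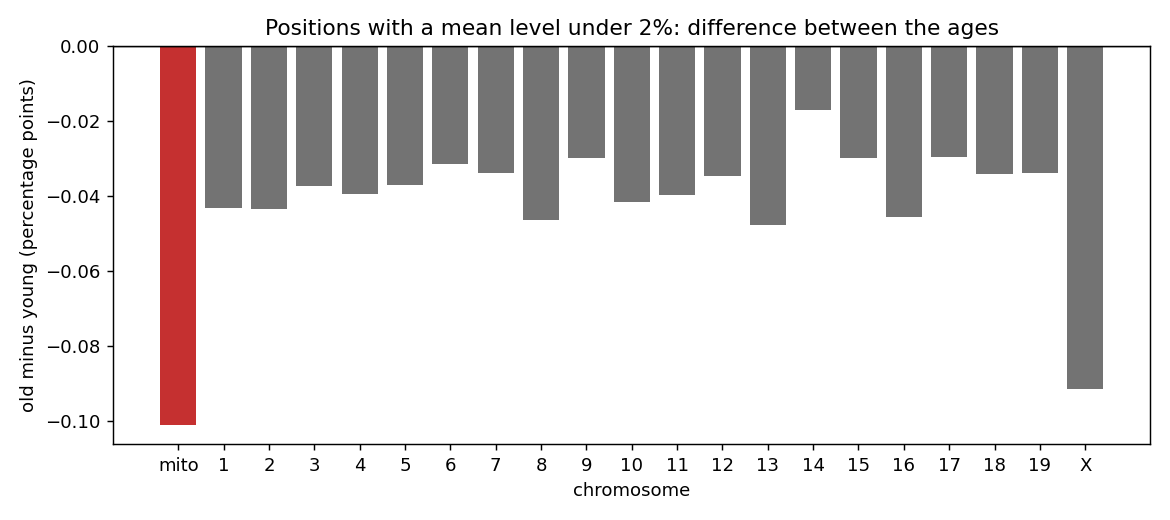
Old minus young level in percentage points, averaged over positions with a mean level under 2%, on mitochondrial DNA (red, 332 positions) and on each nuclear chromosome (grey); each bar is a single group difference without an error. All bars point down, with mitochondrial DNA at -0.101, chromosome X at -0.0915 over 26 positions, and the autosomes between -0.0172 and -0.0476.

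A large part of the mitochondrial genome was almost unlisted, and 2 of the genes in it have a pseudogene on chromosome 1. Between positions 6581 in COX1 and 10889 in ND4, a stretch of 4308 bp, 6 positions were listed (1.39 per kb), against 31.0 per kb over the rest. The longest gap ran 2924 bp from 6581 to 9505 and spans COX2, ATP8, ATP6 and COX3, and the next ran 1050 bp from 9839 to 10889 and spans ND4L. RefSeq's gene table for GRCm38.p6 lists Gm10925, a pseudogene with mt-Atp6 among its synonyms, on chromosome 1 from 24613971 to 24614651. At 681 bp it has the length of ATP6. The pseudogene Gm10222, from 24612404 to 24612700, has the 297 bp of ND4L, and the order of the pair on chromosome 1 is the reverse of the mitochondrial order. Start and end positions add up to 24622578 for the ATP6 pair and to 24622577 for the ND4L pair, as in a reversed copy with 1 bp of slippage.

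Chromosome 1 was bare in both mirrored gaps, and also beyond the longer one. Laid over chromosome 1 in reverse, the longer gap falls on 24613073 to 24615997 and the shorter on 24611689 to 24612739. Both held 0 listed positions. After position 24613071 the next listed position on chromosome 1 was 24616819, at 3748 bp. That bare stretch runs past the mirrored gap, opposite a part of COX1 where mitochondrial positions were listed. The sources used do not say how reads that match both places were treated. The levels at the edges of the gaps varied. The longer gap was bounded by 2.46% (young) and 2.03% (old) at 6581 in COX1 and by 1.43% and 1.44% at 9505 in ND3. The shorter gap was bounded by 3.32% and 2.37% in TrnR and by 0.65% and 0.57% at 10889 in ND4, which is below the mitochondrial median. The part of such reads in these levels was not tested.

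At 4 places that match by spacing, chromosome 1 was heavily methylated and ND3 was not. Positions 24612976, 24612995, 24613001 and 24613071 on chromosome 1 are 19, 6 and 70 bp apart, as are positions 9600, 9581, 9575 and 9505 of ND3 read in reverse. The chromosome 1 positions had 86.7% (young) and 88.8% (old). Their ND3 counterparts averaged 1.55% and 1.51%. These 4 chromosome 1 positions share 1 smoothed value, and the match was found after the data were seen. Other chromosome 1 positions opposite a mitochondrial one, to within 3 bp, ranged wider. How many would fall that close by coincidence was not counted, and their shared origin was not tested. Position 24617239, opposite 5339 in COX1, had 38.2% (young) and 38.0% (old), and the rest lay between 75.59% and 95.48%. Position 24611458 had 75.59% and 90.85%, with an unadjusted p of 0.0202 in the authors' deposited table and no FDR call.

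A stretch of chromosome 12 shared part of the spacing of the control region without reaching the minimum for a copy. The minimum set for calling a copy by spacing was 20 successive distances equal to those on mitochondrial DNA. The step from the first to the second cytosine of a CpG pair, fixed in any DNA, counted as a distance. No chromosome held such a stretch. Shared origin was not tested, as no sequence was used. The longest match had 16 equal distances over 311 bp, between 97061453 and 97061764 on chromosome 12, at 1140834 bp from Galc, the nearest gene that codes for a protein, and positions 15700 to 16011 of the control region. These 17 positions, from 13 CpGs, averaged 83.3% (young) and 77.6% (old) on chromosome 12, and 0.826% and 0.746% on mitochondrial DNA. In either genome 9 of the 17 stood without their partner. On chromosome 12 the levels were widest apart at the first positions, 84.1% against 68.2%, and equal to within 0.12 points at the last 4. The smallest p there was 0.0736 in the authors' deposited table.

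**Figure D5:**
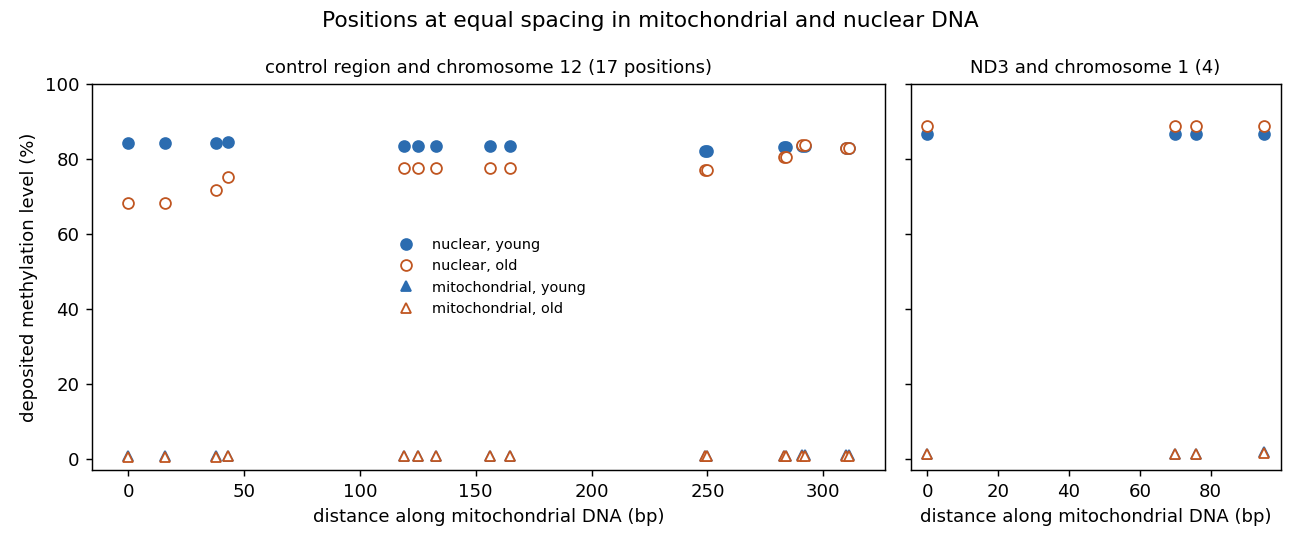
Deposited level in percent at positions with equal spacing in nuclear (circles) and mitochondrial DNA (triangles), young filled and old open, against distance along mitochondrial DNA in bp, for the control region and chromosome 12 (left) and ND3 and chromosome 1 (right). Nuclear positions lie between 68.2% and 88.8%, and mitochondrial ones between 0.61% and 1.91%.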

How the data were processed

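Bisulfite libraries of 8 mice were assigned to an age from their labels. The submitters' processing notes name Bismark, Trim Galore and edgeR, and the builds GRCm38 and mm10, without roles or versions. The authors deposited 1 table. Its levels (mu), per the file headers, are a fraction per age, equal over many neighbours and so smoothed, and were turned into percent. The dispersion (phi) is as deposited. The p-value and FDR columns are the authors' own, deposited per position. Rows on chrM were averaged with equal weight. Adjacent positions were paired as plus and minus strand. Genes came from RefSeq's table for GRCm38.p6 (37 mitochondrial genes); a shift of 1 bp, in case positions count from 0, changed the gene of 0 positions. Nuclear copies were searched by runs of equal distances between successive positions. Named features were all protein-coding and rRNA genes, the control region, extreme tRNA genes and extreme positions. The positions and lists were chosen with earlier results of these data known. Alternatives are given in the closing section. The code was tested on simulated data. Python 3.11.15, numpy 2.4.6 and pandas 2.3.3 were used.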

Additional observations from a re-analysis of the deposited data

How the results depend on the processing

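The mean difference of -0.104 points stayed negative under all 9 alternatives run, from -0.125 points (1 value per run of equal levels) to -0.07 points (median of the differences). It was -0.0813 points without 500 bp at either end, -0.117 points without positions at the most common dispersion, and -0.0981 points without the last position. The last position, the stretch matched on chromosome 12, the positions mirrored on chromosome 1 and the sparse stretch were left out as alternatives chosen after seeing the data. The count of calls was 0 at an FDR of 0.01, 0.05 and 0.1 in the authors' deposited table. Leaving out 50 bp at each end of a gene reversed 0 of 10 gene differences, and moved that of CYTB from -0.0283 to -0.01 points. No paired analysis was possible because the columns hold 1 value per age and carry no replicate numbers. Leaving out single animals, and strand from a reference sequence, were not run. Depth is unknown, and the precision of each level with it.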

Other observations

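The lowest nuclear positions lay in part in clusters. Neighbouring positions share smoothed levels, so those of a cluster are not separate measurements and clustering decides nothing. Of the 22 that stood under the young mitochondrial mean, 8 lay within Mtch1 on chromosome 17 (1.05% to 1.18% in young, 1.4% to 1.49% in old cells) and 6 within Nptn on chromosome 9 (1.13% to 1.14%, and 1.02% to 1.09%). They were chosen by their young level, and the Mtch1 positions stood above the old mitochondrial mean of 1.08%. Mtch1 encodes a protein of the outer mitochondrial membrane, and Nptn encodes neuroplastin, a cell adhesion protein. The lowest of all was in Pard3, a cell polarity gene, at 0.97% (young) and 0.93% (old). A position in Oma1, which encodes a protease of the inner mitochondrial membrane, had 1.11% (young) and 6.07% (old). Another, 423427 bp from Sox11, had 1.13% and 3.76%. The rest lay in or nearest to Upb1, Ccser2, Irak4, Gm20517 and Sorcs1. A link of these genes to mitochondria was not tested.

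Besides the match of the control region, 3 nuclear stretches of 6 CpGs each shared 10 or 11 successive distances with mitochondrial DNA. The fixed steps within CpG pairs are among these distances, so fewer of them carry information. The stretches lay in Vcpkmt on chromosome 12 (2.42% in young, 2.17% in old cells), in Trpm3 on chromosome 19 (6.10% and 6.79%) and in Myo3a on chromosome 2 (85.6% and 82.9%). Without sequence, shared origin and coincidence of spacing cannot be told apart for these 3.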
